A study of Mus musculus with 19 samples.

Results

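Nestin, CD133 and the genes most often used to recognise radial glia were followed across 5 groups of cells from mouse cerebellum. The 10 names looked up were Nes, Prom1 (the gene of CD133), Vim, Fabp7, its older name Blbp, Hopx, Msi1, Msi2, Slc1a3 and Cd44, so they gave 9 genes of the 18193 with a probe set of their own on the array. Each gene was read from its brightest probe set over the 19 arrays, and its remaining probe sets served as a check. All 9 genes passed the filter on low values and were among the 12148 genes tested, and none of them was below its arrays' median in any group.

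Radial glia are the stem cells of the developing nervous system: they span the tissue, divide to give neurons and glia, and share many genes with the astrocytes and, in the cerebellum, the Bergmann glia that descend from them. Their cytoskeleton is built from the intermediate filament proteins nestin and vimentin, their surface carries the glutamate transporter GLAST and prominin 1, and their cytoplasm holds the lipid carrier known as brain lipid-binding protein. Granule neuron progenitors of the external granule layer arise from a different source, the rhombic lip, and depend on the transcription factor Atoh1, also called Math1. Loss of the Sonic hedgehog receptor Ptch1 in these lineages gives rise to medulloblastoma.

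Expression was measured on 19 Affymetrix Mouse430+2 arrays, each hybridised with labelled RNA made from 100 ng of total RNA of cells or tumors taken from C57BL/6 mice, with no culture or treatment named. NEPs are Nestin+ neuronal progenitors (4 arrays), GNPs are Math1+ neuronal progenitors (4 arrays) and NSCs are CD133+, Lin- cerebellar progenitors (3 arrays). NEP tumors (4 arrays) and GNP tumors (4 arrays) are tumor cells of Nestin-CreERT2/Ptch1C/C and Math1-CreERT2/Ptch1C/C mice, in which a tamoxifen-inducible Cre under the Nestin or the Math1 promoter acts on both conditional copies of Ptch1. Age, sex, pooling and the time of Cre induction were not given in the sources used here, and no progenitor group is described as carrying a modified allele. Whether arrays of one group stem from separate animals is not stated, so the p-values measure only how far these arrays spread, which may be technical.

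Values are log2 RMA intensities, in which 1 unit is a doubling; array medians lay between 2.44 and 2.57. A difference is the mean of the first group minus that of the second, with its standard error (SE), and was called at an adjusted p below 0.05 in a limma fit over all genes tested. The array titles form a series that holds the NEP and GNP arrays and another that holds the NSC and tumor arrays, and the poly-A control probe sets averaged 8.94 ± 0.23 (SD, n = 8) in the first and 6.83 ± 0.29 (SD, n = 11) in the second. In comparisons across the series the group and the series cannot be told apart; NEP against GNP, tumor against tumor, and tumor against NSC each lie within one series. The Ptch1 probe set used, whose place relative to the conditional deletion is not given in the sources used here and so checks nothing, read 11.46 ± 0.090 (SD, n = 4) in NEP tumors, 11.21 ± 0.036 (SD, n = 4) in GNP tumors and 10.52 ± 0.29 (SD, n = 4) in NEPs. Atoh1, the gene by which GNPs are named, read 8.85 ± 0.086 (SD, n = 4) in GNPs, 8.93 ± 0.012 (SD, n = 3) in NSCs and 3.95 ± 1.59 (SD, n = 4) in NEPs, so the NSC arrays carried it at about the GNP level.

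The cell type markers differed between and within the groups. The median over 14 microglia and macrophage genes was 8.99 and 9.13 on NEP arrays 1 and 2 but 4.02 and 2.14 on NEP arrays 3 and 4, and 1.97 ± 0.12 (SD, n = 4) in GNPs, where 14 of the 15 on the array were below the array median. Pericyte, fibroblast and meningeal genes split the NEP arrays the same way, with list medians of 8.97, 9.03, 6.28 and 4.86, against 2.61 ± 0.31 (SD, n = 4) in GNPs. For the comparison of NEPs with GNPs, values with NEP arrays 3 and 4 alone are given below for some genes and lists, and others may differ too. For the gene lists this setting was added after the data were seen.

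Of the intermediate filament genes, Nes, which encodes nestin, read 5.78, 5.65, 6.06 and 6.01 on the 4 NEP arrays and 3.32, 4.01, 3.41 and 3.23 on the 4 GNP arrays. The groups did not overlap, and NEPs were 5.2-fold higher (2.38, SE 0.27, adjusted p = 8.57e-07), which is a check of the label of cells named as Nestin+. NSCs lay between them on this probe set, with 4.56, 4.34 and 4.51 (-0.98 for GNP minus NSC, adjusted p = 0.0157). That call was lost without NSC array 1 (-0.93, adjusted p = 0.055) and with the mean of the Nes probe sets (-0.54, adjusted p = 0.111). Neither dimmer Nes probe set called it (-0.35, adjusted p = 0.248 and -0.30, adjusted p = 0.591). The NEP tumor arrays read 6.84, 6.80, 5.17 and 6.04, a wide spread whose lowest value fell within the GNP tumor range of 5.12 to 5.38. Nes was the only one of the 9 genes with its highest group mean in NEP tumors, at 6.21 ± 0.79 (SD, n = 4), but neither NEP tumors against NEPs (0.34, SE 0.27, adjusted p = 0.279) nor NEPs against GNP tumors (-0.61 for GNP tumor minus NEP, adjusted p = 0.0581) was called; 67.8% of all genes tested were called in the latter comparison.

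Between the tumors Nes was 1.92-fold higher in NEP tumors (0.94, SE 0.27, adjusted p = 0.0191). This call was lost without NEP tumor array 1 (0.74, adjusted p = 0.0696), without NEP tumor array 2 (0.75, adjusted p = 0.065), without GNP tumor array 1 (0.89, adjusted p = 0.0525) and with NEP tumor arrays 3 and 4 alone (0.34, adjusted p = 0.358). It also fell just short of the threshold in a fit of the tumor groups alone (0.94, adjusted p = 0.05002). Conversely, without NEP tumor array 3 the excess of NEP tumors over NEPs was called (0.69, adjusted p = 0.00563). GNP tumors were 3.41-fold above GNPs (1.77, SE 0.27, adjusted p = 4.29e-05), so Nes stood higher in both tumor groups than in GNPs.

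The 3 Nes probe sets gave different accounts of the tumors. Both dimmer ones called GNP tumors lower than NEPs (-1.84, adjusted p = 3.15e-07 on the second and -0.86, adjusted p = 0.0378 on the third), as did the mean of the 3 (-1.10, adjusted p = 0.00065) and, on the brightest, a fit of these groups alone (-0.61, adjusted p = 0.00178). All 3 were higher in NEPs than in GNPs, by 2.38 on the brightest, 2.87 on the second and 1.73 on the third. NEP tumors minus NEPs was 0.34 on the brightest, -1.42, adjusted p = 7.58e-06 on the second and 1.01, adjusted p = 0.0168 on the third, so calls in opposite directions came from the same gene. For NEP tumors minus GNP tumors the second gave 0.42, adjusted p = 0.159 and the third 1.87, adjusted p = 0.000473. Where in the transcript each probe set lies is not given in the sources used here.

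Vim, which encodes vimentin, was well above the array medians in every group. Its values were 12.03, 11.96, 12.14 and 12.52 in NEPs and 10.45, 10.31, 10.37 and 10.60 in GNPs, all NEP arrays lying above all GNP arrays (1.73, SE 0.097, adjusted p = 7.71e-11). NSCs, with 10.66, 10.69 and 10.67, lay only 13.9% of the way from the GNP to the NEP mean, and their difference from GNPs was not called (-0.24 for GNP minus NSC, adjusted p = 0.0821). It was called without GNP array 4 (-0.30, adjusted p = 0.044). Both tumors were lower still, at 10.08 ± 0.027 in NEP tumors and 9.99 ± 0.049 in GNP tumors (SD, n = 4 each), and did not differ by the test (0.089, SE 0.097, adjusted p = 0.564, 95% interval -0.12 to 0.29). Vim thus fell from NEPs to NEP tumors by 2.09 (adjusted p = 6.00e-12) and from GNPs to GNP tumors by 0.44 (adjusted p = 0.00109). The latter fall was not called on either other Vim probe set (-0.27, adjusted p = 0.301 and -0.24, adjusted p = 0.285).

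Among 12 relatives of nestin and vimentin or their partners, 10 were tested, of which 4 were higher and 5 lower in NEPs than in GNPs. The 4 were Plec (3.09), which links filaments to other structures, the astrocyte filament gene Gfap (2.63), Synm (1.18), whose product co-assembles with vimentin, and Lmna (0.98), of the nuclear lamina. The 5 that were lower were the neuronal filament genes Ina (-3.52), Nefl (-3.45) and Nefm (-3.003) and the lamin genes Lmnb1 (-0.76) and Lmnb2 (-1.48). With NEP arrays 3 and 4 alone Lmna was not called (0.21, adjusted p = 0.267), and Ina, Nefl and Nefm stood at -2.48, -2.68 and -2.36. Gfap was lower in NEP tumors than in GNP tumors (-0.93, SE 0.21, adjusted p = 0.00438), the opposite direction to Nes on its brightest probe set.

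**Figure D1:**
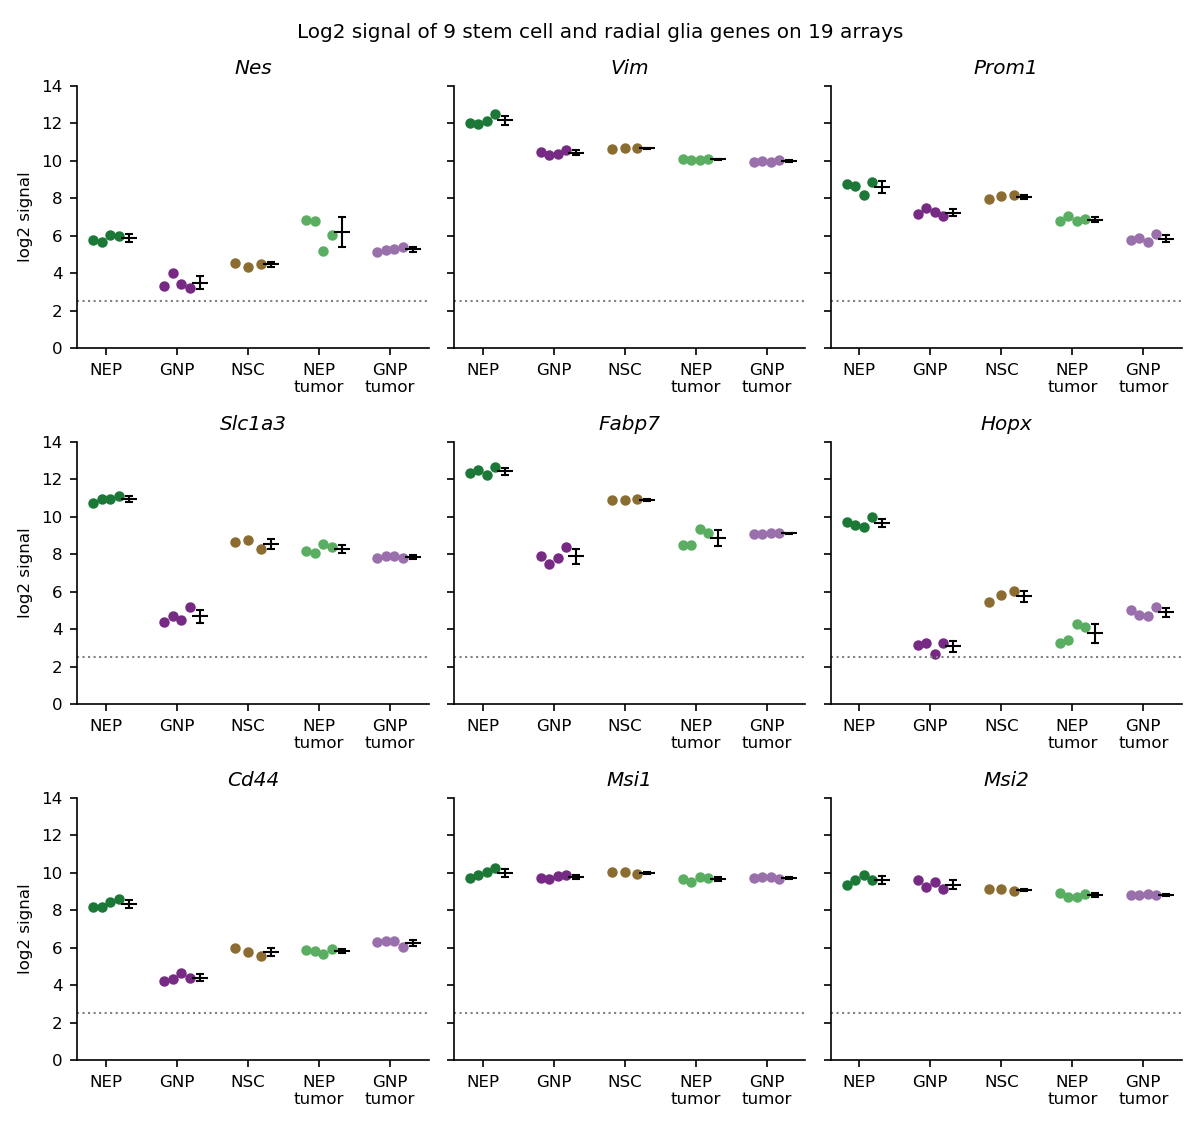
Level of each of the 9 genes on every array, as log2 RMA intensity on the vertical axis, with the 5 groups on the horizontal axis; dots are arrays, bars the group mean with its SD, and the dotted line the median of the array medians. Slc1a3, Hopx, Fabp7 and Cd44 are far above GNPs in NEPs with no overlap, Msi1 and Msi2 are nearly level, and Nes on the NEP tumor arrays runs from 5.17 to 6.84.

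Prom1 encodes prominin 1, the pentaspan membrane protein whose CD133 epitope is used to isolate neural stem cells. It was highest in NEPs, with 8.77, 8.64, 8.17 and 8.85, and not in the NSCs named by CD133, with 7.95, 8.11 and 8.17. The lowest NEP value equalled the highest NSC value at 2 decimals, and NEPs were higher by the test (0.53, SE 0.14, adjusted p = 0.00432). GNPs read 7.16, 7.46, 7.27 and 7.07, below every NSC array (-0.84 for GNP minus NSC, adjusted p = 0.00026).

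Both tumors had less Prom1 than their labelled progenitors, 3.35-fold less in NEP tumors than in NEPs (adjusted p = 4.72e-09) and 2.62-fold less in GNP tumors than in GNPs (adjusted p = 2.01e-07). NEP tumors read 6.77, 7.03, 6.76 and 6.89 and GNP tumors 5.79, 5.88, 5.66 and 6.07, with no overlap, so NEP tumors were 2.02-fold higher (1.01, SE 0.13, adjusted p = 5.56e-05). Prom1 kept the direction of the NEP excess over GNP in the tumors. The tumor difference was smaller than the progenitor difference by 0.36, which was not called (SE 0.19, adjusted p = 0.11), but was called without NEP array 3 (-0.50, adjusted p = 0.00821). The array holds 1 Prom1 probe set, so these values have no second reading. Of 4 relatives of prominin or membrane proteins of similar layout, 3 were tested: Ttyh1, a chloride channel of neural stem cells and glia, was higher in NEPs than in GNPs by 6.58 and lower in NEP tumors than in GNP tumors (-1.13, SE 0.19, adjusted p = 0.000516), Ttyh3 was higher in NEPs by 0.59, and Ttyh2 was not called (0.063, adjusted p = 0.777).

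Slc1a3, Fabp7 and Hopx had the widest gaps of the 9 genes between NEPs and GNPs. Slc1a3 encodes GLAST, the glutamate transporter of radial and Bergmann glia. It read 10.74, 10.98, 10.93 and 11.14 in NEPs and 4.40, 4.71, 4.48 and 5.18 in GNPs, a 76.4-fold excess (6.26, SE 0.15, adjusted p = 1.54e-15). The groups were far apart, and NSCs, with 8.65, 8.74 and 8.26, lay 61.7% of the way from the GNP to the NEP mean. NEP tumors read 8.18, 8.06, 8.53 and 8.38 and GNP tumors 7.78, 7.93, 7.93 and 7.79. The tumors did not overlap, but their difference was not called (0.43, SE 0.15, adjusted p = 0.0539). It was called without NEP tumor array 2 (0.50, adjusted p = 0.0402) and in a fit of these groups alone (0.43, adjusted p = 0.0148), and 3 of its 5 dimmer probe sets called it: 1.20, 0.80 and 0.70. The other two, with group means near the array medians, did not (0.098, adjusted p = 0.787 and -0.26, adjusted p = 0.426). GNP tumors stood 8.97-fold above GNPs (adjusted p = 4.12e-11) and NEP tumors 6.34-fold below NEPs (adjusted p = 1.16e-10).

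Other genes of glutamate uptake were taken as a list of 7, of which 5 were tested. Higher in NEPs than in GNPs were the transporter genes Slc1a1 (3.81), Slc1a4 (2.26), which carries neutral amino acids, and Slc1a2 (1.85), and Glul (1.53), the glutamine synthetase of astrocytes. Slc1a5 was not called (-0.54, adjusted p = 0.219), but was lower with NEP arrays 3 and 4 alone (-1.43, adjusted p = 0.000484), where Slc1a1 stood at 2.80, and none of the 5 was called between the tumors.

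Fabp7 encodes brain lipid-binding protein, which carries fatty acids in radial glia. It read 12.35, 12.49, 12.25 and 12.68 in NEPs, against 7.89, 7.48, 7.78 and 8.40 in GNPs, a 23.5-fold excess (4.56, SE 0.19, adjusted p = 1.32e-12). NSCs, with 10.90, 10.88 and 10.95, were closer to NEPs than to GNPs, at 66.3% of the way. NEP tumors read 8.47, 8.52, 9.35 and 9.16 and overlapped GNP tumors, which read 9.10, 9.10, 9.15 and 9.16 (-0.25, SE 0.19, adjusted p = 0.383, 95% interval -0.65 to 0.15). With NEP tumor arrays 1 and 2 alone NEP tumors were lower (-0.63, adjusted p = 0.021). Of 6 relatives 2 were tested: Fabp3 was higher in NEPs than in GNPs (2.03, SE 0.29, adjusted p = 9.18e-06), while Fabp5, also a carrier of brain fatty acids, was well above the array medians in every group and not called (-0.055, SE 0.072, adjusted p = 0.508).

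Hopx encodes a small homeodomain protein without DNA binding of its own, known as a marker of outer radial glia in the cortex and of stem cells in several tissues. It had the largest difference of the 9 genes. NEPs read 9.70, 9.57, 9.48 and 9.98 and GNPs 3.14, 3.25, 2.65 and 3.26, a 97.3-fold excess (6.60, SE 0.21, adjusted p = 4.74e-14). NSCs read 5.44, 5.81 and 6.04, above every GNP and below every NEP array. NEP tumors, with 3.26, 3.44, 4.28 and 4.12, lay 59.96-fold below NEPs (adjusted p = 2.50e-13). They also lay below every GNP tumor array, which read 5.003, 4.74, 4.68 and 5.16 (-1.12, SE 0.21, adjusted p = 0.00137), so the tumor order on this probe set was opposite to the progenitor order. On the dimmer of its measured probe sets the tumor difference had the same sign and was not called (-0.51, adjusted p = 0.104). Against GNPs the NEP tumors were higher by 0.70 (adjusted p = 0.0131; 47.4% of all genes tested were called), a call lost without GNP array 3 (0.56, adjusted p = 0.0522) or NEP tumor array 3 (0.53, adjusted p = 0.0515).

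The bases upstream of the start sites played no part in the choice of genes. RefSeq promoter sequence (GRCm38.p6) was at hand for 8 of the 9 genes with 12 start sites, and the 250 bases before each start were searched on both strands. The core of SOX factor sites, ACAAT, or ATTGT on the opposite strand, lay in 4 of the 12 windows, one each of Nes, Fabp7, Slc1a3 and Hopx, and in 27.7% of all 32851 promoter windows of that length. The related core ACAAAG (16.5% of windows), the RBPJ core GTGGGAA of Notch targets (5.42%) and the octamer part ATGCAAA (4.12%) lay in no window of the 8 genes. The box CCAAT, or ATTGG on the opposite strand, lay in 9 of the 12 windows, from 6 of the 8 genes, and in 33.8% of all windows. The Msi2 windows among the 9 overlap and share the same match. The box TATAAA lay in 2 of the 12 windows, those of Slc1a3 and Vim, and in 12.4% of all. The windows of Nes, Fabp7, Slc1a3 and Hopx that hold the SOX core are shown because they hold that match. They run 5′ to 3′ along the gene's strand and end at the base before the start, with matches to the SOX core, the CCAAT box and the TATAAA box on either strand in capitals (no matches overlap in them); a match is a description of letters and not a measured site, and the arrays do not say which start was in use. The windows are chr3:87970843-87971092 (plus strand) for Nes, chr10:57784673-57784922 (plus strand) for Fabp7, chr15:8710808-8711057 (minus strand) for Slc1a3 and chr5:77095268-77095517 (minus strand) for Hopx.
Nes: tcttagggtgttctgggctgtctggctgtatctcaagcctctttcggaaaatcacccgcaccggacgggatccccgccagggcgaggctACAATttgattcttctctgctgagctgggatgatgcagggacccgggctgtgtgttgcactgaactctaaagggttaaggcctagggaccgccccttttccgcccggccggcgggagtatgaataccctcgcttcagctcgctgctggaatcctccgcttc
Fabp7: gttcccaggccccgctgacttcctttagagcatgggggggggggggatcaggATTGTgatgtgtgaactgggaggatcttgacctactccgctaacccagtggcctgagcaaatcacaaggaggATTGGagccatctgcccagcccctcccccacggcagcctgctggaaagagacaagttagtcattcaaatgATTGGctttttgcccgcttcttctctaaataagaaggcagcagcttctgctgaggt
Slc1a3: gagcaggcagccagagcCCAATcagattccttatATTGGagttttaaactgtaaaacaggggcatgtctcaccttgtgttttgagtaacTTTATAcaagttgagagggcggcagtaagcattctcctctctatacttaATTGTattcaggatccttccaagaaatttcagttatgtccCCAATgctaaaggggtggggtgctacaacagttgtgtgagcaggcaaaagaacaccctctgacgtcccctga
Hopx: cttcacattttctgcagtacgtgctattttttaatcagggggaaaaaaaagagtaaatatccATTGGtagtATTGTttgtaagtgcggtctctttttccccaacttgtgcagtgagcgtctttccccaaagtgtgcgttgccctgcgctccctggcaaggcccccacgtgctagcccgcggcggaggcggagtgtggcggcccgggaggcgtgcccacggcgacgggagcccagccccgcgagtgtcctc

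Cd44 encodes the receptor for hyaluronan, found on astrocyte-restricted precursors and on many blood and connective tissue cells. NEPs read 8.16, 8.17, 8.43 and 8.59 and GNPs 4.21, 4.32, 4.66 and 4.39, a 15.4-fold excess (3.94, SE 0.12, adjusted p = 3.16e-14). The groups did not overlap, and NSCs, with 6.002, 5.77 and 5.58, were close to NEP tumors, with 5.85, 5.83, 5.64 and 5.91 (0.023 for NEP tumor minus NSC, 95% interval -0.26 to 0.31). GNP tumors, with 6.30, 6.36, 6.37 and 6.01, were above every NEP tumor array (-0.45, SE 0.12, adjusted p = 0.0147), on this probe set in the order opposite to the progenitors. The tumor call was lost with NEP tumor arrays 3 and 4 alone (-0.49, adjusted p = 0.0526) or arrays 1 and 2 alone (-0.42, adjusted p = 0.0709), and neither other measured probe set called it (-0.23, adjusted p = 0.13 on the second and 0.037, adjusted p = 0.894 on the third, whose group means lie near or below the array medians). The mean of all Cd44 probe sets gave -0.16, adjusted p = 0.117, so the tumor difference was called on the brightest probe set only.

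Of 11 genes of hyaluronan synthesis, breakdown or CD44 binding, 8 were tested. In NEPs against GNPs the 4 higher ones were Lyve1 (4.88), a hyaluronan receptor that brain macrophages also carry, the hyaluronan synthase Has2 (3.14), the hyaluronidase Hyal2 (0.63) and Msn (0.53), which ties CD44 to actin. The 3 lower ones were Has3 (-2.22), Hmmr (-0.57) and Ezr (-0.37). The median level over the 8 genes was 7.72 and 7.90 on NEP arrays 1 and 2, where the microglia list was high, 6.001 and 5.86 on arrays 3 and 4, and 5.67 ± 0.034 (SD, n = 4) in GNPs. With arrays 3 and 4 alone Lyve1 stood at 1.76 and Has2 at 3.20, and Ezr was not called (-0.24, adjusted p = 0.0969). Between the tumors Ezr (0.54) and Rdx (0.19), both linkers of the same family as Msn, were higher in NEP tumors and Has2 lower (-0.34).

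The Musashi genes Msi1 and Msi2 encode RNA-binding proteins that hold back translation of Numb in stem cells. On their brightest probe sets both were well above the array medians in all groups, with small differences. Msi1 lay between 9.52, in an NEP tumor, and 10.27, in an NEP array. Its values in NEPs were 9.75, 9.91, 10.06 and 10.27 and in GNPs 9.71, 9.69, 9.83 and 9.89, with overlap and a difference of only 0.22, SE 0.093, adjusted p = 0.0471. Without GNP array 1, 2 or 3 or NEP array 3 or 4 that call was lost, with values from 0.13 to 0.23. The Msi1 difference was 0.39 (adjusted p = 0.00167) with NEP arrays 3 and 4 alone and 0.049 (adjusted p = 0.625) with NEP arrays 1 and 2 alone. Msi1 was highest by mean in NSCs, at 10.01 ± 0.049 (SD, n = 3), where it was not told apart from NEPs (-0.010 for NEP minus NSC, 95% interval -0.22 to 0.20). The other measured Msi1 probe set, which is much dimmer, shared the called excess of NEPs over GNPs, with means of 4.34 and 3.57. Its NSC mean of 4.08 lay below that of NEPs, so the small Msi1 differences above belong to the brightest probe set.

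Msi2 read 9.37, 9.62, 9.90 and 9.61 in NEPs and 9.60, 9.22, 9.52 and 9.13 in GNPs, again overlapping (0.26, SE 0.11, adjusted p = 0.0468). This call was lost without GNP array 2 or 4 or NEP array 2, 3 or 4, with values from 0.17 to 0.26. The Msi2 difference was 0.39 (adjusted p = 0.0116) with NEP arrays 3 and 4 alone and 0.13 (adjusted p = 0.351) with NEP arrays 1 and 2 alone. On its brightest probe set Msi2 was lower in both tumors, by 0.82 from NEPs to NEP tumors (adjusted p = 5.76e-06) and by 0.54 from GNPs to GNP tumors (adjusted p = 0.000657). Its other measured probe sets did not all share this. The next brightest had its highest mean in NSCs, 8.46, against 7.26 in NEPs and 7.02 in GNPs, and gave -1.20 for NEP minus NSC where the brightest gave 0.53. No direction for Msi2 between the progenitors and NSCs or between tumors and progenitors therefore held over its probe sets. NEP tumors had lower means than NSCs on every measured Msi2 probe set. That difference was not called on the brightest (-0.28, adjusted p = 0.0652), and 3 dimmer ones called it (-0.75, -0.80 and -1.75). GNP tumors had lower means than NSCs on all measured ones but the dimmest. Among 6 relatives and targets, Numb was higher in NEPs than in GNPs (0.36), and Numbl (-2.03), Dazap1 (-0.74), Hnrnpd (-0.52), Hnrnpab (-0.33) and Hnrnpa0 (-0.32) were lower. With NEP arrays 3 and 4 alone Numb was not called (0.17, adjusted p = 0.282).

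**Figure D2:**
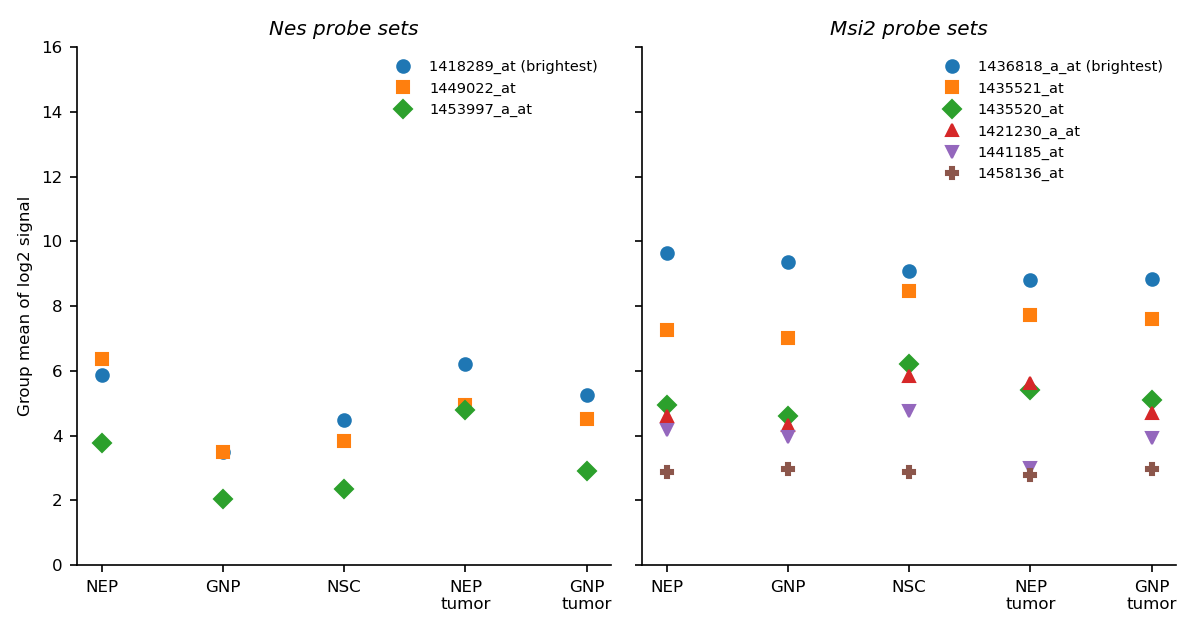
Group means of each measured probe set of Nes (3 probe sets) and Msi2 (6 probe sets), as log2 RMA intensity, with the 5 groups on the horizontal axis and a marker shape for each probe set. The Nes probe sets share the NEP excess over GNPs but part in the NEP tumors. The brightest Msi2 probe set is lower in NSCs and tumors, where others are higher in NSCs.

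Counted together, 9 of the 9 genes were higher in NEPs than in GNPs, where 29.6% of all genes tested were called higher in NEPs, 39.9% lower and 69.5% in either direction. The median difference over the 9 was 2.38, and over all genes tested -0.11. The NEP and GNP arrays overlapped for Msi1 and Msi2 and not for the other genes, and overlap was not counted over all genes tested. Against NSCs, 8 of the 9 were higher in NEPs (30.9% of all genes), with Msi1 the exception, and 6 of the 9 were lower in GNPs (13.1% of all genes). Among these 6, Nes was called on its brightest probe set only. By group mean 7 of the 9 were highest in NEPs, 5 were lowest in GNPs, Prom1 and Vim were lowest in GNP tumors, and Msi1 and Msi2 in NEP tumors.

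The order of the group means and the neighbours in it that were not told apart were as follows, with the limit that some neighbours belong to different title series. Of the 36 pairs of neighbours over the 9 genes, 22 were called. For Prom1 the order was NEP, NSC, GNP, NEP tumor and GNP tumor, and for Hopx NEP, NSC, GNP tumor, NEP tumor and GNP, with each neighbour pair called. Fabp7 had the order of Hopx, with GNP tumor and NEP tumor not told apart. Vim had the order of Prom1, with NSC and GNP, and the tumors, not told apart. Slc1a3 ran NEP, NSC, NEP tumor, GNP tumor and GNP, where NSC and NEP tumor (-0.27 for NEP tumor minus NSC, adjusted p = 0.206) and the tumors were not told apart. Cd44 ran NEP, GNP tumor, NEP tumor, NSC and GNP, with NEP tumor and NSC not told apart. Nes ran NEP tumor, NEP, GNP tumor, NSC and GNP, with NEP tumor and NEP, and NEP and GNP tumor, not told apart on the brightest probe set. Msi1 ran NSC, NEP, GNP, GNP tumor and NEP tumor, with NEP and GNP the one pair called, and Msi2 ran NEP, GNP, NSC, GNP tumor and NEP tumor, also with NEP and GNP the one pair called.

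Of 24 further neural stem cell and radial glia genes, 22 were tested, and 19 were higher and 1 lower in NEPs than in GNPs, with a median difference of 3.13. The largest differences were in Tnc (8.52), a matrix protein of radial glia, the endothelin receptor gene Ednrb (8.18) and Aldh1l1 (7.47), an astrocyte enzyme of folate metabolism. Bergmann glia and astrocyte markers were higher in 12 of 12, with the water channel gene Aqp4 at 8.56. Granule progenitor markers were lower in 9 of 11, with Barhl1 at -5.12 and Atoh1 at -4.90, and differentiating neuron markers were lower in 10 and higher in 1 of 13, with Cbln1 at -5.24. With NEP arrays 3 and 4 alone Barhl1 stood at -3.80, Atoh1 at -3.57 and Cbln1 at -3.60, and the medians of the stem cell and Bergmann glia lists at 2.99 and 5.22. The neuron list had medians of 5.89, 6.39, 8.40 and 7.68 on the 4 NEP arrays and 10.12 ± 0.026 (SD, n = 4) in GNPs.

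Markers of other cells moved with the same comparison. Microglia and macrophage genes were higher in NEPs in 14 of 14 tested (Csf1r 5.95), pericyte, fibroblast and meningeal genes in 14 of 14 (Col1a2 6.76), endothelial genes in 10 of 11 with 1 lower (Cldn5 3.90) and oligodendrocyte lineage genes in 8 of 9 (Olig1 7.39). With NEP arrays 3 and 4 alone 9 of 14 microglia genes were still higher (Csf1r 3.06), 13 of 14 pericyte, fibroblast and meningeal genes (Col1a2 5.45), 10 of 11 endothelial genes (Cldn5 3.12) and 7 of 9 oligodendrocyte lineage genes (Olig1 7.02). Lower in that setting were 1 endothelial gene, Slco1a4 (-1.98), and 1 oligodendrocyte lineage gene, Pdgfra (-0.46). On NEP array 4, where the microglia list stood at 2.14, near the GNP mean of 1.97 ± 0.12 (SD, n = 4), Slc1a3 read 11.14, Fabp7 12.68, Hopx 9.98, Cd44 8.59, Vim 12.52 and Nes 6.01. Each of these was at or above its value on NEP array 1, where the microglia list stood at 8.99. Other lists on NEP array 4 stayed above GNPs: oligodendrocyte lineage at 7.06 against 3.21 ± 0.31, pericyte, fibroblast and meningeal at 4.86 against 2.61 ± 0.31, endothelial at 4.05 against 2.16 ± 0.34 and ependymal at 5.76 against 2.81 ± 0.16 (SD, n = 4 for each GNP value). The part of these cell types in the 9 genes' differences was not tested. The Bergmann glia list ran from 10.31 to 10.59 over the NEP arrays. With NEP arrays 3 and 4 alone, as with arrays 1 and 2 alone, the calls of Nes, Prom1, Vim, Fabp7, Hopx, Slc1a3 and Cd44 against GNPs stood. In bulk samples such as these, fewer cells of a type and less RNA per cell cannot be told apart.

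**Figure D3:**
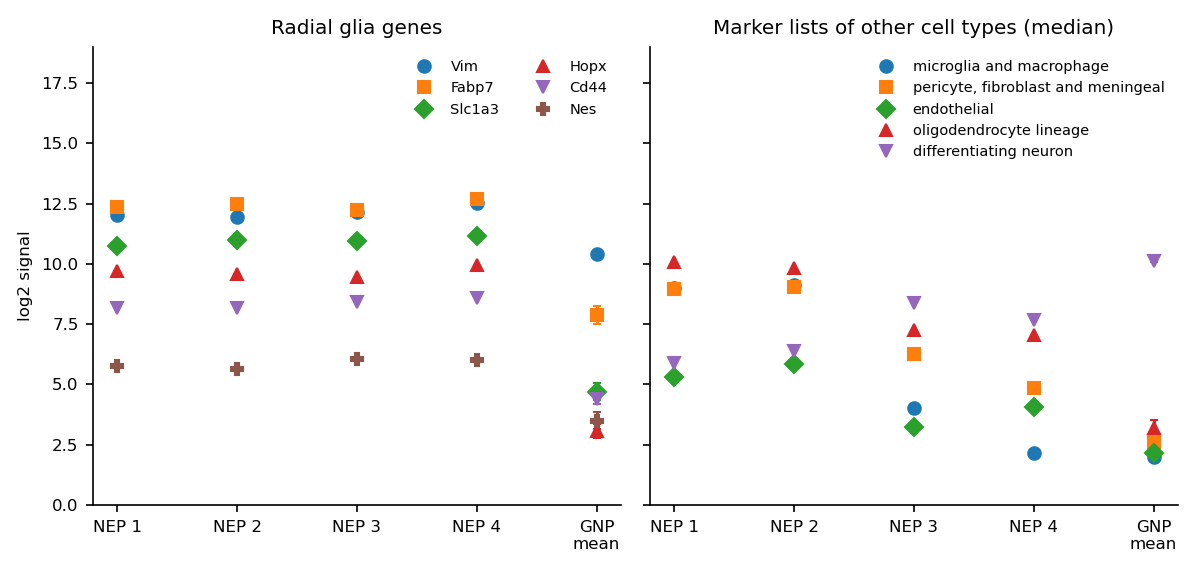
Left, levels of Vim, Fabp7, Slc1a3, Hopx, Cd44 and Nes on NEP arrays 1 to 4 and as the GNP mean with its SD (n = 4), in log2 RMA intensity; right, the median over each cell type marker list on the same arrays. The 6 genes stay level over the 4 NEP arrays, while the microglia list drops from 8.99 to 2.14 between arrays 1 and 4.

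In NEP tumors 8 of the 9 were lower than in NEPs (32.6% of all genes), all but Nes, with a median of -2.09. In GNP tumors 5 were higher than in GNPs (18.5% of all genes): Nes, Fabp7, Hopx, Slc1a3 and Cd44, by 1.24 for Fabp7 to 3.16 for Slc1a3. The 3 that were lower (31.4% of all genes) were Prom1, Vim and Msi2. These comparisons cross the title series, so the step from progenitor to tumor and the series cannot be told apart in them. The 22 further stem cell genes tested gave 16 lower and 2 higher in NEP tumors than in NEPs and 15 higher and 5 lower in GNP tumors than in GNPs. Markers of other cells moved too. In NEP tumors against NEPs 10 of 12 Bergmann glia and astrocyte genes were lower (median -3.58), 12 of 14 pericyte, fibroblast and meningeal genes (-2.99), 8 of 11 endothelial genes (-1.28), 6 of 9 oligodendrocyte lineage genes (-1.85) and 3 of 14 microglia genes (-1.62). Called higher in these lists were 2 pericyte, fibroblast and meningeal genes and 1 gene each of the Bergmann glia, endothelial and oligodendrocyte lineage lists. Granule neuron progenitor markers rose, with 10 of 11 higher and 0 lower in NEP tumors than in NEPs (median 1.74). Differentiating neuron markers were higher in 11 and lower in 2 of 13 (median 2.29). Of all 12148 genes tested, 4399 were called higher in that comparison. In GNP tumors against GNPs 9 of 14 microglia genes and 10 of 12 Bergmann glia and astrocyte genes were higher (median 3.72 and 2.15), with 1 of the latter lower. The part of these markers in the result was not tested.

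Within the second series, NEP tumors against NSCs gave 1 of the 9 genes higher and 5 lower (44.3% of all genes in either direction). Nes was higher by 1.74, and Prom1, Vim, Fabp7, Hopx and Msi1 were lower, Fabp7 by 2.03 and Hopx by 1.99. GNP tumors against NSCs gave 2 higher, Nes and Cd44, and 6 lower (47.6% of all genes in either direction). Of the 2, Nes (0.80, SE 0.29, adjusted p = 0.0346) lost its call without any single NSC array and without GNP tumor array 2, 3 or 4, with values from 0.73 to 0.84. Cd44 (0.48, SE 0.13, adjusted p = 0.00776) lost its call without NSC array 6 (0.37, adjusted p = 0.0547). Without that array 5 of the 9 genes were called in place of 8. Against NSCs, pericyte, fibroblast and meningeal genes were lower in 9 of 14 in each tumor (median -2.77 in NEP tumors and -2.72 in GNP tumors), and endothelial genes in 6 of 11 in NEP tumors and 11 of 11 in GNP tumors. Of the pericyte, fibroblast and meningeal genes 2 were higher in NEP tumors than in NSCs. The part of these markers in the results was not tested.

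Between the tumors 2 of the 9 genes were higher in NEP tumors, Nes and Prom1 (15.5% of all genes), and 2 were lower, Hopx and Cd44 (8.10% of all genes). The other 5 were not called. The median difference over the 9 was -0.018, against 0.049 over all genes tested. Of the 22 further stem cell genes tested 4 were higher in NEP tumors and 1 lower. The higher ones included the Notch target Hes1 (1.38, SE 0.21, adjusted p = 0.000203) and the neural progenitor factor Pax6 (0.92, SE 0.16, adjusted p = 0.000501). Pax6 is also on the granule neuron progenitor list. The 1 lower gene was Gfap. Over the 22 genes the median difference was 0.039, with 11 of them positive. Microglia markers were not called in either direction between the tumors (0 of 14, median -1.01). Granule neuron progenitor markers were higher in NEP tumors in 4 of 11 and lower in 0 (median 0.25). Differentiating neuron markers were higher in 2 of 13 and lower in 0 (median 0.13).

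The tumor difference minus the progenitor difference, in which a shift common to a title series cancels, was called for 6 of the 9 genes, all negative (25.2% of all genes called negative). It was -7.73 for Hopx, -5.83 for Slc1a3, -4.81 for Fabp7, -4.40 for Cd44, -1.64 for Vim and -1.43 for Nes (SE 0.39, adjusted p = 0.00421). For the third Nes probe set it was not called (0.14, adjusted p = 0.84). The 3 that were not called were Prom1, Msi1 and Msi2. Hopx went from 6.60 between the progenitors to -1.12 between the tumors and Cd44 from 3.94 to -0.45. Granule neuron progenitor markers were called positive in 10 of 11 and negative in 0 (median 1.52). Differentiating neuron markers were called positive in 11 and negative in 1 of 13 (median 2.81). Of all 12148 genes tested, 4462 were called positive. The part of these markers in the result was not tested.

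**Figure D4:**
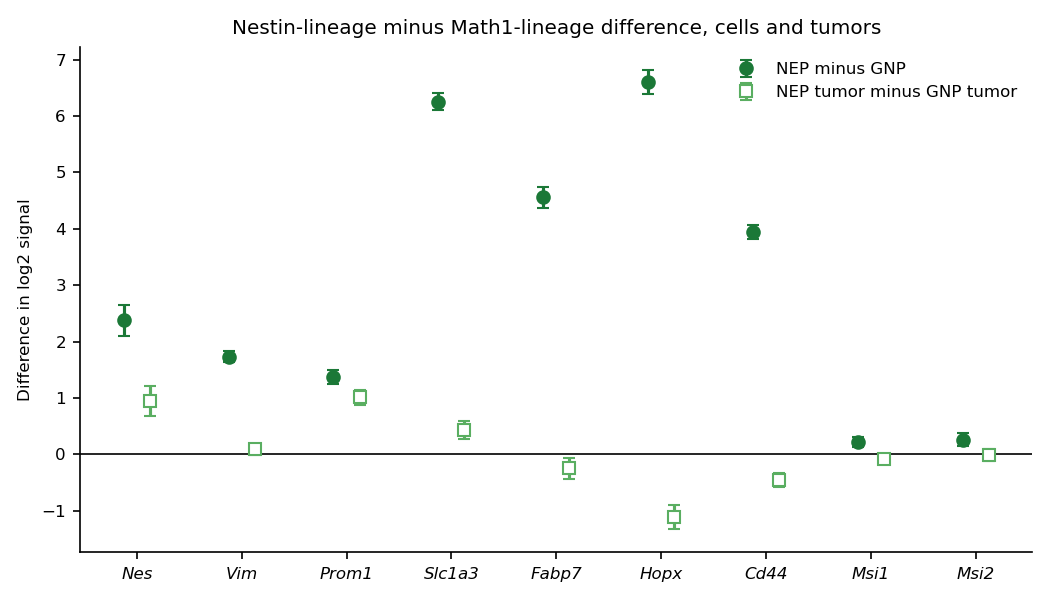
Difference of NEP minus GNP and of NEP tumor minus GNP tumor for each of the 9 genes, in log2 units with the SE of the limma fit. The progenitor differences reach 6.60 for Hopx, while the tumor differences lie between -1.12 for Hopx and 1.01 for Prom1.

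The 4 NEP tumor arrays fell into pairs on some of these genes. Nes was higher on arrays 1 and 2, at 6.84 and 6.80, than on arrays 3 and 4, but these read 5.17 and 6.04 and so did not lie close together. For Fabp7 the order was opposite, with 8.47 and 8.52 against 9.35 and 9.16. Hopx ran like Fabp7, with 3.26 and 3.44 against 4.28 and 4.12. The Bergmann glia and astrocyte list moved with Fabp7 and Hopx, at 6.38 and 6.32 against 7.88 and 7.58, as did the microglia list, at 3.87 and 3.84 against 5.30 and 4.52. Prom1 did not split, from 6.76 to 7.03. The part of these markers in the Nes values was not tested.

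For the 6 genes whose SD over the 19 arrays was at least 1, the 3 genes with the most similar profile were sought among all genes tested by the root mean square difference of the centred log2 values over the 19 arrays, which share groups and title series. Nearest to Slc1a3 were Ptprz1 (0.45), Slc25a18 (0.52) and Sox2 (0.53), of which Ptprz1 is a receptor phosphatase and Sox2 a transcription factor of neural stem cells. Nearest to Fabp7 were Pltp (0.33), Gsta4 (0.38) and Wwtr1 (0.38), of which Pltp transfers phospholipids and Wwtr1 encodes the Hippo pathway co-activator TAZ. Nearest to Hopx were Ramp1 (0.46), Gabrb1 (0.46) and Slc14a1 (0.47), a peptide receptor partner, a GABA receptor subunit and a urea transporter. Nearest to Cd44 were Itgb8 (0.25), Arid5b (0.28) and Sorl1 (0.31), with Itgb8 an integrin subunit. Prom1 ran closest to Nmi (0.28), Nxn (0.29) and P3h4 (0.30), and Nes to Septin8 (0.43), Cdh4 (0.46) and Acer3 (0.48). No gene appeared in more than 1 of these sets.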

How the data were processed

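Expression was measured on 19 arrays in 5 groups of 3 or 4. The deposited table holds log2 values, which the authors made with Affymetrix Expression Console and RMA, per the submitters' processing notes; their versions are not given in the sources used here. Of 45101 probe sets, 64 were controls, 34945 had 1 gene symbol in the platform annotation, 932 several and 9160 none; only those with 1 were used. The brightest probe set by mean stood for a gene, and genes at or above the array median on at least 3 arrays were tested. A single limma 3.58.1 fit (R 4.3.3) of 5 group means with eBayes gave each comparison, with Benjamini-Hochberg adjustment over the 12148 genes and a threshold of 0.05. The fit was tested on simulated data. No pair of the 171 array pairs held identical values. RMA compresses differences between dim probe sets, and the number of arrays limits the precision. Promoter windows came from RefSeq (GRCm38.p6). Alternatives were other probe sets, filters, a second quantile normalization, a variance trend, fits of the compared groups alone, left-out arrays, pairs of the NEP and NEP tumor arrays and a replicate block. The genes and gene lists were chosen with earlier results of these data known. Named besides the 9 were the tested genes of their relatives' lists, up to 3 genes of the stem cell and each marker list with the largest called differences, and the 3 nearest in profile.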

Additional observations from a re-analysis of the deposited data

Results flagged for a closer look

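A limma test of the tumor difference minus the progenitor difference called 7520 of the 12148 genes tested, 3058 of them negative. Among the 9 genes 6 were called, all negative. For these 6 the difference between the NEP and GNP lineages was not the same in tumors and in progenitors. The tumor difference minus the progenitor difference was -7.73 for Hopx (6.60 in progenitors, -1.12 in tumors) and -5.83 for Slc1a3 (6.26 and 0.43). For Fabp7 it was -4.81 (4.56 and -0.25), and for Cd44 -4.40 (3.94 and -0.45). Vim gave -1.64 (1.73 and 0.089) and Nes -1.43 (2.38 and 0.94), where the third Nes probe set gave 0.14. The Bergmann glia and astrocyte list moved with these genes, with a median of 5.27 between the progenitors and -0.37 between the tumors. The granule neuron progenitor list moved the other way, with a median of -1.23 between the progenitors and 0.25 between the tumors. The part of other cell types was not tested. No array of a group of 4 stood apart from the others on any of the 9 genes by Dixon's test.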

How the results depend on the processing

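The alternatives other than single probe sets gave 1728 values of the 9 genes. Of these, 1622 kept their side of the threshold, 65 lost a call and 35 gained one. Changes of sign called in neither fit are counted among the 1622. Examples are Fabp7 between the tumors (-0.25 in the main fit, at most 0.13) and Nes for NEP tumor minus NEP (0.34, at least -0.27). The other 6 changed sign with a call in the main fit or the alternative. The 6 were all Msi2 read as the mean of its probe sets: -0.53 for NEP minus NSC, -0.65 for GNP minus NSC, 0.011 for NEP tumor minus NEP, 0.12 for GNP tumor minus GNP, 0.13 for NEP tumor minus GNP and 0.0018 for GNP tumor minus NEP. Single dimmer probe sets of Msi2 reversed its sign, with -1.24, -1.28, -1.20 and -0.38 for NEP minus NSC, -1.53, -1.62, -1.44 and -0.79 for GNP minus NSC, 0.94 for NEP tumor minus GNP tumor. They also gave 0.64 for the tumor minus progenitor difference, 1.02 and 0.48 for NEP tumor minus NEP, 0.50 for GNP tumor minus GNP and 1.32, 0.82 and 0.69 for NEP tumor minus GNP. The -0.38 came from a probe set below the array medians in all 5 groups, which is not among the measured ones. A dimmer Nes probe set gave -1.42 for NEP tumor minus NEP, and a dimmer Slc1a3 probe set 0.39 for NEP tumor minus NSC. The count of the 9 genes called between GNP tumors and NSCs was 8, and leaving out 1 array gave 5 to 7. The 6 calls of the tumor minus progenitor difference, and those of Prom1 and Hopx between the tumors, stood under every alternative on their main probe set and as the mean of probe sets. Deviations of same-numbered arrays from their group means had correlations over genes of -0.16 to 0.071. Arrays with different numbers gave -0.21 to 0.19. With so few pairs these values cannot show whether the numbers pair arrays. With a replicate block, 7 of the 9 genes and 6590 of all were called between NEPs and GNPs, Msi1 and Msi2 losing their calls; 4 of the 9 and 3130 of all between the tumors, where Nes lost its call (adjusted p = 0.0572) and Slc1a3 gained one (adjusted p = 0.0263); and 6 of the 9 and 6778 of all for the tumor minus progenitor difference. The cause of these changes was not tested. The number of arrays and, for the dim probe sets of Nes and Msi2, signal near the array median limit the precision.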

Other observations

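Sox1, a transcription factor of neural stem cells and a member of the further stem cell list, was singled out after its values were seen. It read 9.49 ± 0.18 (SD, n = 4) in NEPs, 3.61 ± 0.25 (SD, n = 4) in GNPs, 7.29 ± 0.20 (SD, n = 3) in NSCs, 9.36 ± 0.28 (SD, n = 4) in NEP tumors and 9.04 ± 0.085 (SD, n = 4) in GNP tumors. For NEP tumors minus NEPs Sox1 gave -0.13, SE 0.14, adjusted p = 0.427 in the limma fit, and GNP tumors were above GNPs by 5.43 (adjusted p = 2.02e-14). Sox2, a factor of the same family, read 10.66 in NEPs and 8.02 in NEP tumors, a difference of -2.64, SE 0.19, adjusted p = 2.13e-09.

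The NSC arrays combined levels that separate NEPs from GNPs. Atoh1 read 8.93 there and 8.85 in GNPs, while Fabp7, Slc1a3 and Prom1 lay 66.3%, 61.7% and 61.05% of the way from the GNP to the NEP mean. Nes, Hopx and Cd44 lay at 41.04%, 40.7% and 35.3%. The NSC arrays belong to another title series than the NEP and GNP arrays, so group and series cannot be told apart in these positions.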
